A study of Arabidopsis thaliana with 13 samples.

Results

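The comparison described here set Arabidopsis thaliana seedlings in which the transcription factor ANAC059 had been switched on for 5 h against seedlings carrying the empty inducible vector. It comprised 4 of the 13 array profiles of the series, chosen by their titles: 2 of the inducible ANAC059 overexpression plants and 2 of the empty vector plants that were normalized with them. The other profiles were an ANAC092 induction set of 6 and a leaf set of 3. All 4 samples came from 3-week-old transgenic seedlings in the Col-0 background, treated with 10 µM estradiol for 5 h, and RNA was taken from the shoots, so both groups carried the inducible system and both received estradiol. The titles call the arrays of a group biological replicates; the labels do not say how many seedlings or independent lines stand behind each array, or which promoter drives the construct, so p-values measure the spread between these arrays only. The study asked which genes respond early to the factor.

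ANAC059 belongs to the NAC family of plant transcription factors, which bind DNA through a conserved domain at the amino terminus and regulate their targets through a variable carboxyl terminus. It is a close relative of ANAC092, and both are known as promoters of leaf senescence, the ordered dismantling of a leaf in which chlorophyll is broken down and nutrients are exported. In an estradiol-inducible system the factor is made only after the hormone is added, so that transcripts changing within hours are enriched for early responses.

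Neither ANAC059 nor ANAC092 had a probe set named for it alone in the platform annotation, so the level of the induced gene was not examined and the labels were not checked in that way. Of the leaf markers, 9 of 59 nuclear photosynthesis genes were measured, with median log2 signals of 11.19 and 11.15 in induced shoots, against 11.14 and 11.21 in empty vector shoots, far above the array medians of 7.59 to 7.62. Of 15 root markers only EXPA7, a root-hair expansin gene, was measured, at 6.34 and 6.36 in induced shoots, against 6.27 and 6.51 in empty vector shoots; no floral or dividing-cell marker was measured. Replicates differed from each other across probe sets with an SD of 0.182 (log2) between the induced arrays and 0.179 between the empty vector arrays, against 0.251 to 0.304 between an induced and an empty vector array. The 3' signal of actin, which exceeds the 5' signal more where the RNA is less intact, exceeded it by 2.59 and 2.45 in induced shoots, against 2.03 and 2.26 in empty vector shoots (log2), and the 25S ribosomal RNA control stood at 12.52 and 12.53 in induced shoots, against 13.13 and 13.22 in empty vector shoots. For GAPDH the same measure was -0.01 and 0.06 in induced shoots, against 0.45 and 0.03 in empty vector shoots. Their part in the results below was not tested.

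ANAC059 induction lowered more transcripts strongly than it raised. With limma and an adjusted p under 0.05, 679 of 22746 probe sets were called (2.99%), 375 higher (1.65%) and 304 lower (1.34%). At a difference of at least 1 on the log2 scale (a factor of at least 2) with groups that did not overlap, 42 were higher (0.185%) and 101 lower (0.444%). In whole shoots, fewer cells of a type and less RNA per cell cannot be told apart. Falls were also larger: 20 of the 101 reached 2 log2 units, against 1 of the 42 rises, and the median change was -1.43 among the falls and 1.16 among the rises. Lack of overlap alone says little with 2 arrays a side, since it held at 53.0% of all probe sets, and an exact permutation test of a single gene could not go below 0.333. The count of all calls was 444 without induced replicate 1, 375 without induced replicate 2, 161 without empty vector replicate 1 and 330 without empty vector replicate 2, the lone array in each fit being assumed to vary like the other group. The counts of large changes moved less, between 36 and 51 for rises and between 82 and 135 for falls. Passing all 4 of these fits were 35 of the 42 rises and 80 of the 101 falls.

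**Figure D1:**
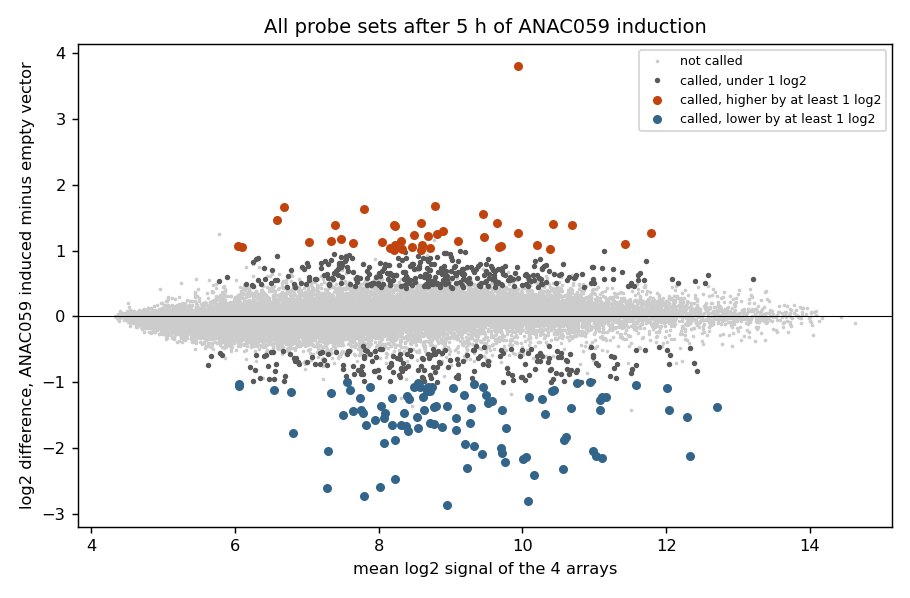
Log2 difference between ANAC059 induced and empty vector arrays (vertical) against the mean log2 signal of the 4 arrays (horizontal), 1 point a probe set, coloured by the limma call and by size. The 101 called falls of at least 1 log2 spread further from 0 than the 42 called rises, except for 1 probe set at 3.81.

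The exception among the rises was 258059_at, a probe set without a gene in the annotation. Whether it measures the induced ANAC059 gene itself was not tested. Its log2 signal was 11.52 and 12.17 in induced shoots, against 8.27 and 7.80 in empty vector shoots, a rise of 3.81 ± 0.24 (SE), or 14.0-fold, with an adjusted p of 0.00211. No other probe set rose by as much as 2 log2 units; the next, 251336_at, also without a gene name, rose by 1.68.

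Of the 42 rises, 22 were probe sets of 1 named gene, and all 22 are described here. The largest was AT5G17350, with 8.39 and 8.86 in induced shoots, against 6.93 and 7.04 in empty vector shoots, a 3.11-fold rise (1.64 ± 0.16 SE, adjusted p = 0.00561). Genes for transcription factors were among them. AT1G77640, which encodes an AP2/ERF-domain factor, stood at 10.12 and 10.35 in induced shoots, against 8.59 and 8.76 in empty vector shoots, and rose 2.96-fold. The basic helix-loop-helix gene AT5G50915 stood at 10.15 and 9.99 in induced shoots, against 8.65 and 9.09 in empty vector shoots, and rose 2.31-fold. In all of these the induced arrays lay above both empty vector arrays by more than the replicates of either group differed.

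Several genes of calcium sensing rose. Calmodulins and calmodulin-like proteins bind calcium through EF-hand motifs and pass the signal to partner proteins. AT3G01830, an EF-hand gene, stood at 8.01 and 8.17 in induced shoots, against 6.68 and 6.72 in empty vector shoots, a rise of 1.39 ± 0.09 (SE, adjusted p = 0.00227). AT5G39670, another EF-hand gene, stood at 9.03 and 8.81 in induced shoots, against 7.45 and 7.64 in empty vector shoots, a rise of 1.37. CML37, a calmodulin-like gene, was dim in both groups, at 6.49 and 6.67 in induced shoots, against 5.42 and 5.60 in empty vector shoots, and rose by 1.07. All 3 calls held whichever array was left out.

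Across the calmodulin and calmodulin-like family, 35 of 57 genes were measured: 4 were called higher and 1 lower (all probe sets: 1.65% higher and 1.34% lower), and 30 did not pass, with a median difference of 0.08 (all probe sets: -0.01). The fourth rise was AT1G21550, by 0.55 (adjusted p = 0.0390), which missed the threshold without any 1 of the arrays (0.131 without induced replicate 1, 0.0655 without induced replicate 2, 0.127 without empty vector replicate 1 and 0.115 without empty vector replicate 2). CML23 stood at 9.75 and 8.95 in induced shoots, against 8.04 and 8.33 in empty vector shoots, a difference of 1.17 that did not pass (adjusted p = 0.0669), the 2 induced arrays being 0.80 apart. CML41 was at 0.63 (adjusted p = 0.0852). The member that fell was CML38, a gene also induced when oxygen is short, with 10.56 and 10.34 in induced shoots, against 11.85 and 11.59 in empty vector shoots. It changed by -1.27 ± 0.13 (SE, adjusted p = 0.00644), so that CML37 and CML38, neighbours in the family's numbering, moved in opposite directions.

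Outside that family, other genes of calcium handling were among the 22. AT4G27280, an EF-hand gene with a strong signal, stood at 12.39 and 12.44 in induced shoots, against 10.95 and 11.36 in empty vector shoots, and rose 2.40-fold. AT5G66650, of the calcium uniporter family that carries calcium into organelles, stood at 9.61 and 9.75 in induced shoots, against 8.60 and 8.47 in empty vector shoots, and rose 2.20-fold. IQD24, of a family of calmodulin-binding scaffold proteins, stood at 8.65 and 8.58 in induced shoots, against 7.50 and 7.47 in empty vector shoots, and rose 2.19-fold. It was the 1 called of 12 measured IQD genes, where 1.65% of all probe sets were called higher. Those 12 had a median of 0.07, and the next highest, IQD28, was at 0.42 (adjusted p = 0.0572).

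The remaining named rises lay between 1.01 and 1.42. AT4G39670, of the glycolipid transfer protein family, stood at 10.21 and 10.52 in induced shoots, against 8.95 and 8.93 in empty vector shoots, and rose by 1.42. AT2G32190, of a family of small cysteine-rich membrane proteins, rose by 1.29 and AT1G35210 by 1.14. TRM28, of a family that recruits a regulator of the cortical microtubules, rose by 1.14, and AT5G59845, of the gibberellin-regulated GASA peptides, by 1.12. The dirigent-like gene AT1G58170 rose by 1.09, AT4G12580 by 1.06 and scpl48, a serine carboxypeptidase-like gene, by 1.05.

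The 5 smallest of the 22 rises were the ones that lost the call when 1 array was left out. AT1G66090, of the TIR-NBS receptor class, stood at 10.73 and 11.07 in induced shoots, against 9.75 and 10.00 in empty vector shoots, and rose by 1.03. Leaving out empty vector replicate 1 ended this call (adjusted p = 0.107). AT2G34930, of a leucine-rich repeat family, rose by 1.05 and AT3G02840, an armadillo-repeat gene, by 1.04. Neither was called without empty vector replicate 1 (0.128 for AT2G34930 and 0.0681 for AT3G02840) or without empty vector replicate 2 (0.0898 for AT2G34930 and 0.0529 for AT3G02840). AT1G58420 and the flavonol rhamnosyltransferase gene AT1G06000 rose by 1.01 each and lost their calls without empty vector replicate 1 (0.0645 for AT1G58420 and 0.0546 for AT1G06000).

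**Figure D2:**
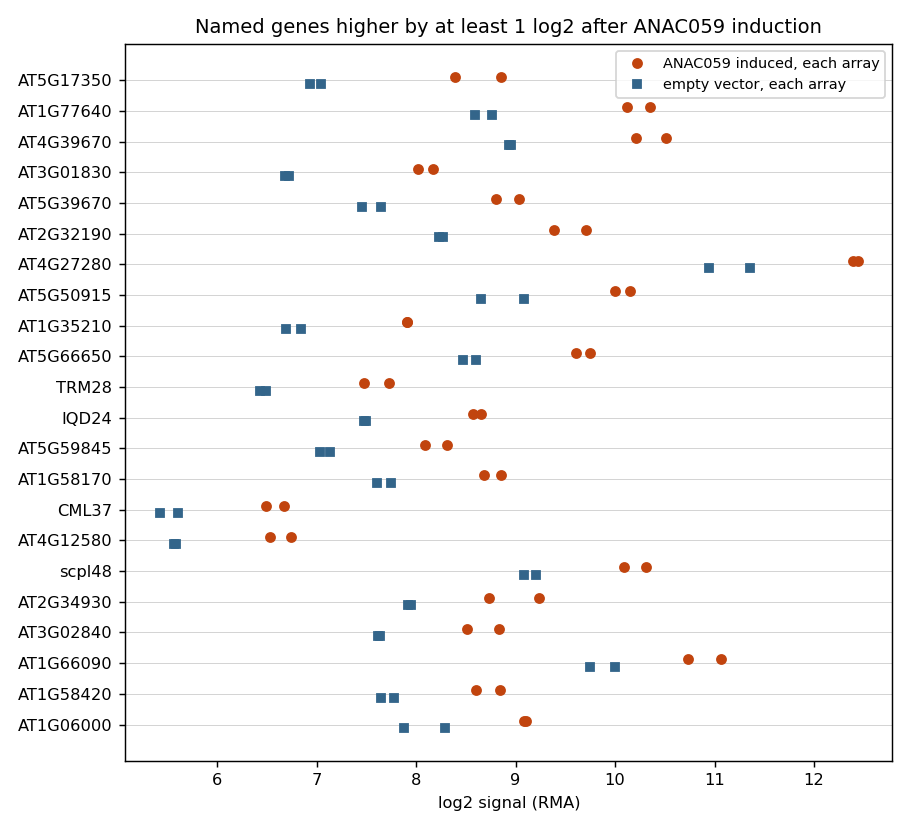
Log2 RMA signal (horizontal) of the 22 named genes that rose by at least 1 log2, ordered by the size of the rise, with 1 circle for each ANAC059 induced array and 1 square for each empty vector array. In every row both circles lie to the right of both squares, from CML37 near 5.4 to 6.7 up to AT4G27280 near 10.9 to 12.4.

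Genes that respond within minutes to wounding or touch were sparsely measured, 8 of 52, and 3 of the 8 were called higher, where 1.65% of all probe sets were (median 0.21, against -0.01 over all). PUB23, a U-box ubiquitin ligase gene that limits immune signalling, stood at 8.89 and 9.23 in induced shoots, against 8.11 and 8.22 in empty vector shoots, and rose by 0.89 (adjusted p = 0.0216). WRKY53, a WRKY factor that promotes senescence, stood at 9.47 and 9.55 in induced shoots, against 8.71 and 9.02 in empty vector shoots, and rose by 0.65 (adjusted p = 0.0447). STZ, a zinc-finger repressor of the stress response, rose by 0.54 (adjusted p = 0.0436). None of these calls held in all 4 fits: PUB23 was not called when empty vector replicate 1 (0.127) or 2 (0.0684) was left out. WRKY53 missed it without induced replicate 1 (0.0917) or 2 (0.116) or empty vector replicate 1 (0.169), and STZ without induced replicate 2 (0.127) or empty vector replicate 1 (0.180) or 2 (0.116).

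Markers of senescence itself were mostly not called after 5 h. Of 16 listed leaf senescence genes 5 were measured, and WRKY53 was the 1 called, higher (all probe sets: 1.65% higher). For WRKY53, empty vector replicate 3 lay 0.91 above the mean of replicates 1 and 2, more than the rise of 0.65 after induction. SAG29, a marker gene of senescence that encodes a sugar transporter, stood at 8.13 and 8.73 in induced shoots, against 8.52 and 8.03 in empty vector shoots, so that the groups overlapped (0.16, adjusted p = 0.737). SAG101 was at 0.39, WRKY6 at -0.02 and PPDK at -0.39, and these did not pass. None of 5 measured cell-death proteases was called, where 2.99% of all probe sets were, so that 5 genes say little. AT4G04460, an aspartic protease gene of developmental cell death, was at 0.07, ALPHA-VPE at -0.06, BETA-VPE at -0.06, GAMMA-VPE at -0.15 and DELTA-VPE at -0.16. In the ANAC092 set, whose arrays were normalized apart, the ANAC092 induced arrays lay 4.92 above empty vector replicate 3 for SAG29 and 4.94 above it for AT4G04460.

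The chlorophyll breakdown gene NOL (1 of 7 measured) was at 0.36 and did not pass. Of the 9 measured photosynthesis genes only RCA, which encodes the activase of Rubisco, was called, higher (all probe sets: 1.65% higher). For RCA, empty vector replicate 3 lay 0.53 above the mean of replicates 1 and 2. RCA was higher by 0.63 after induction, at 12.84 and 12.95 in induced shoots, against 12.20 and 12.33 in empty vector shoots. It missed the threshold without induced replicate 2 (adjusted p = 0.0869) or empty vector replicate 1 (0.139) or 2 (0.0620). None of 69 genes encoded in the chloroplast passed, where 2.99% of all probe sets did. The 2 induced arrays lay on opposite sides of the empty vector mean for these genes, with medians of 0.17 in replicate 1 and -0.35 in replicate 2. Over both induced arrays the list had a median difference of -0.12, where all probe sets had -0.01. Calls among the 69 appeared only once 1 induced array was left out, which leaves a single array on that side.

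The falls were headed by genes that plants switch on when oxygen is short. AT3G10040, listed in the gene table also as HRA1 (hypoxia response attenuator), encodes a repressor that dampens the low-oxygen response. It stood at 7.37 and 7.67 in induced shoots, against 10.48 and 10.29 in empty vector shoots, a 7.29-fold fall (-2.87 ± 0.13 SE, adjusted p = 0.00104). AT1G33055 stood at 8.87 and 8.48 in induced shoots, against 11.56 and 11.42 in empty vector shoots, and fell 7.02-fold. AT5G10040 stood at 7.13 and 6.85 in induced shoots, against 9.91 and 9.02 in empty vector shoots, and fell 5.57-fold. Each of these 3 passed in all 4 fits without 1 array.

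Of 50 listed low-oxygen genes 25 were measured: 20 were called lower and 5 did not pass, against 1.34% of all probe sets called lower, and the median difference was -1.29. The 2 induced arrays gave similar medians relative to the empty vector mean, -1.36 in replicate 1 and -1.41 in replicate 2. The wound-responsive family genes AT4G10270 and AT4G33560 changed by -2.15 and -1.49 and the mitochondrial carrier gene AT5G26200 by -1.92. The leucine-rich repeat extensin gene AT2G15880 changed by -1.78, the RING-finger gene AT5G42200 by -1.73, AT3G10020 by -1.70, the kelch-repeat gene AT3G27220 by -1.54 and AT4G27450 by -1.53. AT5G66985 stood at 8.84 and 8.56 in induced shoots, against 11.00 and 10.41 in empty vector shoots, and fell (adjusted p = 0.00607). Of the genes named here AT4G10270 did not keep its call when empty vector replicate 1 was left out (adjusted p = 0.0646).

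The other 7 called members fell less: AT1G74940 and AT2G17850, whose protein is of the rhodanese family, changed by -1.29 and -1.26, AT3G23170 by -1.19 and AT1G19530 by -1.07. AT3G03270, of the universal stress protein family, changed by -0.86, AT1G26270, of the phosphatidylinositol kinase family, by -0.68 and AT4G24110 by -0.56. CML38, described above, is on this list too. Over the 4 fits without 1 array, AT3G23170 and AT3G03270 passed in 3, AT1G19530 and AT1G26270 in 2 and AT4G24110 in 0.

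The low-oxygen genes that did not pass included the fermentation enzymes that were measured. PDC2, a pyruvate decarboxylase gene, stood at 11.90 and 11.98 in induced shoots, against 12.28 and 12.27 in empty vector shoots (-0.34, adjusted p = 0.101). AT4G17260, a lactate dehydrogenase gene, overlapped between the groups at 10.11 and 10.27 in induced shoots, against 10.32 and 10.17 in empty vector shoots (-0.05). AT5G44730 was at -0.67 (adjusted p = 0.0534), FHL at -0.44 and AT1G72940 at -0.23. The number of list members called was 20 without induced replicate 1, 19 without induced replicate 2, 14 without empty vector replicate 1 and 17 without empty vector replicate 2.

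A smaller group of falls was of genes that rise in darkness or when sugar runs short. AT3G15450, a gene of that kind, stood at 9.27 and 9.53 in induced shoots, against 11.81 and 11.64 in empty vector shoots, and fell 5.01-fold. AKINBETA1, a regulatory subunit of the energy-sensing kinase SnRK1, stood at 8.12 and 8.18 in induced shoots, against 9.30 and 9.16 in empty vector shoots, and fell 2.11-fold. MCCA, a subunit of methylcrotonyl-CoA carboxylase in leucine breakdown, stood at 7.18 and 6.94 in induced shoots, against 8.07 and 8.04 in empty vector shoots, and fell (adjusted p = 0.00839). These were 3 of 6 measured genes of a list of 31, where 1.34% of all probe sets were called lower, and the list's median was -0.69. MGL was at -0.39, BZIP53 at 0.12 and MCCB, the other subunit of the same carboxylase, at -0.13, none of which passed. Only with empty vector replicate 1 in the fit was MCCA called (adjusted p without it = 0.0608).

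Of the autophagy genes of the ATG8 family, ubiquitin-like proteins that coat autophagosome membranes, all 9 were measured and 2 were called, both lower, where 1.34% of all probe sets were. ATG8E stood at 8.57 and 8.36 in induced shoots, against 10.26 and 9.92 in empty vector shoots, and fell 3.08-fold (adjusted p = 0.00401), passing in all 4 fits. ATG8F fell by 0.89 and missed the threshold without induced replicate 2 (adjusted p = 0.0601) or empty vector replicate 1 (0.162) or 2 (0.0696). The other 7 lay between -0.39 (ATG8H) and 0.11 (APG8A) and did not pass, and the median of the 9 was -0.21.

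The other genes among the 25 largest named falls had varied roles. AT1G03610 stood at 8.59 and 8.70 in induced shoots, against 10.89 and 10.82 in empty vector shoots, and fell 4.64-fold (adjusted p = 0.000976). AT1G10140 fell 4.40-fold and AT5G19120, of the aspartyl protease family, 4.35-fold. AT1G10140 stood at 9.06 and 8.92 in induced shoots, against 11.26 and 10.99 in empty vector shoots, and AT5G19120 at 9.79 and 10.13 in induced shoots, against 12.23 and 11.93 in empty vector shoots. The kelch-repeat F-box gene AT1G23390 changed by -1.87, AT3G15630 by -1.69, AT1G72060 by -1.64, AT2G20670 by -1.64, the short-chain dehydrogenase gene AT2G29340 by -1.63, AT4G17245 by -1.53 and AT3G49790 by -1.50. These calls held whichever array was left out. The other 25 named falls were smaller, the largest being AT5G60680 at -1.42. Of the probe sets without a gene name, 264339_at changed by -2.72 and 253161_at by -2.61.

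PDF1.2, a plant defensin gene that marks jasmonate and ethylene signalling, had the widest replicate spread of the named falls. It stood at 9.33 and 8.00 in induced shoots, against 10.83 and 10.67 in empty vector shoots (-2.08 ± 0.38 SE, adjusted p = 0.0436), and it was not called when empty vector replicate 1 (0.199) or 2 (0.107) was left out. It was the 1 called of 2 measured genes of 19 on the salicylic acid and defence list (all probe sets: 1.34% lower), although salicylic acid is not known to induce it. EFR, an immune receptor gene, was at 0.32 and did not pass.

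**Figure D3:**
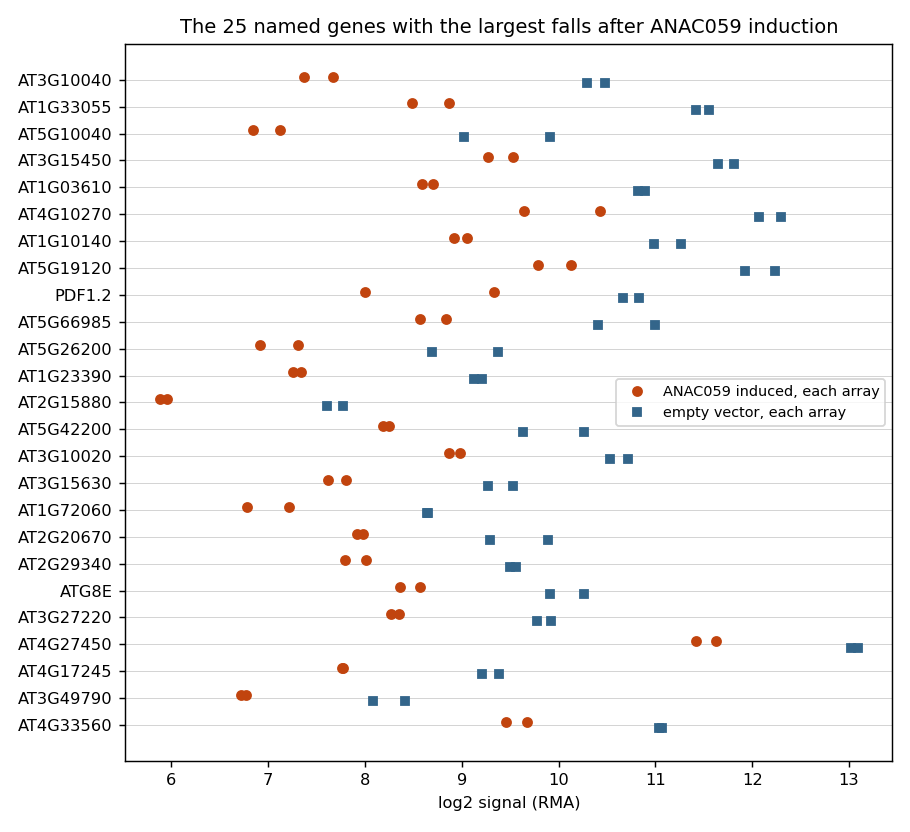
Log2 RMA signal (horizontal) of the 25 named genes with the largest called falls, ordered by the size of the fall, with 1 circle for each ANAC059 induced array and 1 square for each empty vector array. In every row both circles lie to the left of both squares, and PDF1.2 shows the widest gap between its 2 induced arrays, 9.33 and 8.00.

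Of the 36 gene lists, 29 had a measured gene and 16 of those a called one. Beside those above, HSA32 was called lower among 4 heat shock genes (-0.54), CYP71B24 (-0.76) and CYP71B22 (-0.61) among 28 cytochrome P450 genes, and EXPA4 higher among 17 expansins (0.75). SWEET2 was called higher among 16 SWEET sugar transporters (0.61) and UGT84A3 among 51 UDP-glycosyltransferases listed by symbol (0.62). The rhamnosyltransferase gene AT1G06000, described above, was not among those 51. Of all probe sets 1.65% were called higher and 1.34% lower, so that UGT84A3, 1.96% of its list, was near that share. Empty vector replicate 3 minus the mean of replicates 1 and 2 was 0.55 for EXPA4, 0.52 for SWEET2 and 0.44 for UGT84A3. It was -0.21 for HSA32, -0.20 for CYP71B24 and 0.12 for CYP71B22. None of these 6 calls passed in more than 2 of the 4 fits without 1 array: adjusted p was 0.0710 to 0.148 for HSA32, 0.0299 to 0.0896 for CYP71B24, 0.0619 to 0.0881 for CYP71B22, 0.0451 to 0.0684 for EXPA4, 0.0467 to 0.114 for SWEET2 and 0.0375 to 0.116 for UGT84A3. In 13 lists with measured genes none passed, among them xyloglucan endotransglucosylases (10), glutathione transferases (13), wall acetylation genes (23), auxin response (3), abscisic acid (2), oxidative stress (2), and 1 gene each for jasmonate, ethylene, the clock, chlorophyll breakdown and roots. The NAC, floral and dividing-cell lists had no measured gene, and the ERF and DREB, MYB, cyclin and trehalose phosphate synthase lists, defined by symbol, matched no symbol in the annotation.

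**Figure D4:**
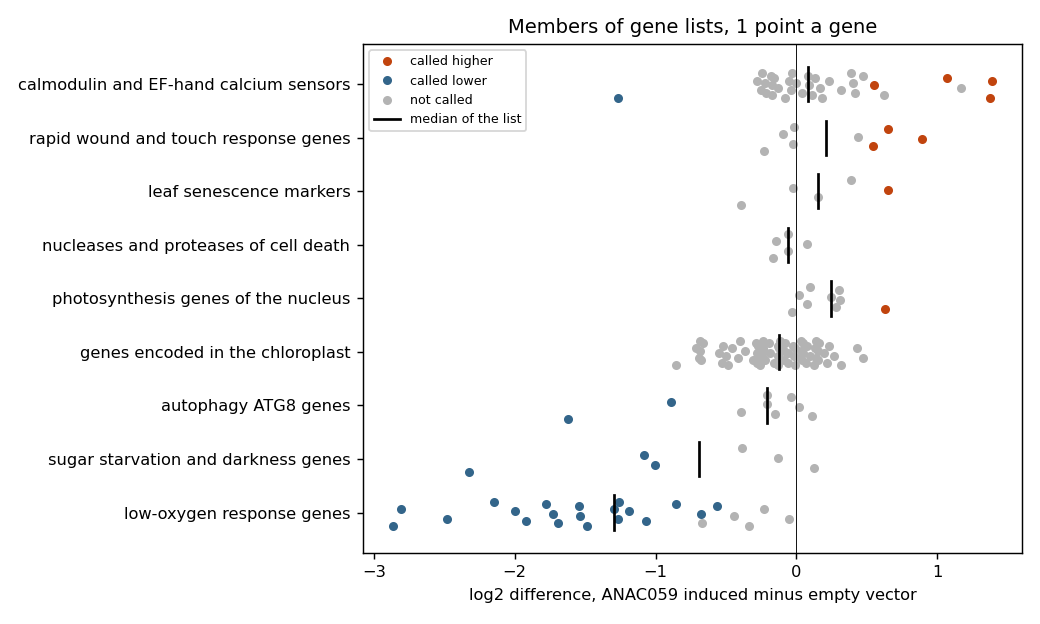
Log2 difference between ANAC059 induced and empty vector arrays (horizontal) for each measured gene of 9 lists, coloured by the limma call, with a bar at the list median. The low-oxygen list lies to the left of 0, with its median at -1.29, the calcium sensor list has 4 called points to the right and 1 to the left, and the chloroplast list has no called point.

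Empty vector replicates 1 and 2 were the controls here, and the ANAC092 set holds both again, beside an empty vector replicate 3. That both sets hold the same arrays is inferred from the files (their replicate 1 minus replicate 2 differences had a correlation of 0.883 over the probe sets) and not stated outright in the labels. In the ANAC092 set, replicate 3 minus the mean of replicates 1 and 2 was at or below -1 at 433 probe sets (1.90%) and at or above 1 at 8. Among the 101 called falls after ANAC059 induction it was at or below -1 at 36 and within 0.25 of 0 at 19, with a median of -0.74. Among the 42 called rises it was at or above 1 at 1 and within 0.25 of 0 at 14, with a median of -0.06. It departed by over 0.25 in the direction of the induction at 82 of the 101 falls and at 16 of the 42 rises. Over all probe sets this difference had an SD of 0.358 (log2), and the shares within and beyond 0.25 were not counted there. The counts at 0.25 among the falls and rises therefore have no share to be set against. Replicate 3 lay at least 1 below the mean of replicates 1 and 2 at 36 of the 101 falls, against 1.90% of all probe sets, but these are not like shares. The falls were picked as low against replicates 1 and 2, and the same replicates are subtracted here. That pulls this difference down among the falls and up among the rises, by an amount that was not measured. The part of this difference in the result was not tested.

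Single genes gave very different values. Empty vector replicate 3 lay 0.08 above the mean of replicates 1 and 2 for AT3G10040 and 0.01 below it for AT3G27220, the largest falls among low-oxygen genes for which it stayed within 0.25. Of the 20 low-oxygen genes called lower it was within 0.25 at 3, AT1G26270 being the other (0.10), and at or below -1 at 11, among them AT4G10270 (-2.17), AT5G66985 (-2.13), AT5G10040 (-1.90) and AT1G33055 (-1.73). PDF1.2 had the lowest value of all named genes, -3.11, and ATG8E and ATG8F were at -1.08 and -1.38. Of the sugar starvation genes, AT3G15450 was at -1.07, AKINBETA1 at -0.42 and MCCA at -0.41. Some falls outside the lists, chosen after their values were seen, were also near 0 in it: AT3G07310 (-0.04), AT3G52060 (-0.04), the transporter genes AT3G23550 (0.00) and AT5G14120 (-0.13), and AT3G12150 (0.11). These 5 had changed by -1.36, -1.20, -1.04, -1.09 and -1.17 after ANAC059 induction and passed in all 4 fits without 1 array.

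Among the rises, IQD24 (1.08) and TRM28 (0.83) stood out as genes at which empty vector replicate 3 lay far above replicates 1 and 2. It was higher by 0.61 for AT5G50915 and by 0.72 for AT1G06000. For the calcium genes AT3G01830 (-0.63) and AT4G27280 (-0.68), and for AT2G32190 (-1.07) and AT5G17350 (-0.50), it was lower than replicates 1 and 2, the direction opposite to that of the induction. For AT1G77640 (-0.09), AT5G39670 (0.06) and CML37 (-0.12) it stayed within 0.25.

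**Figure D5:**
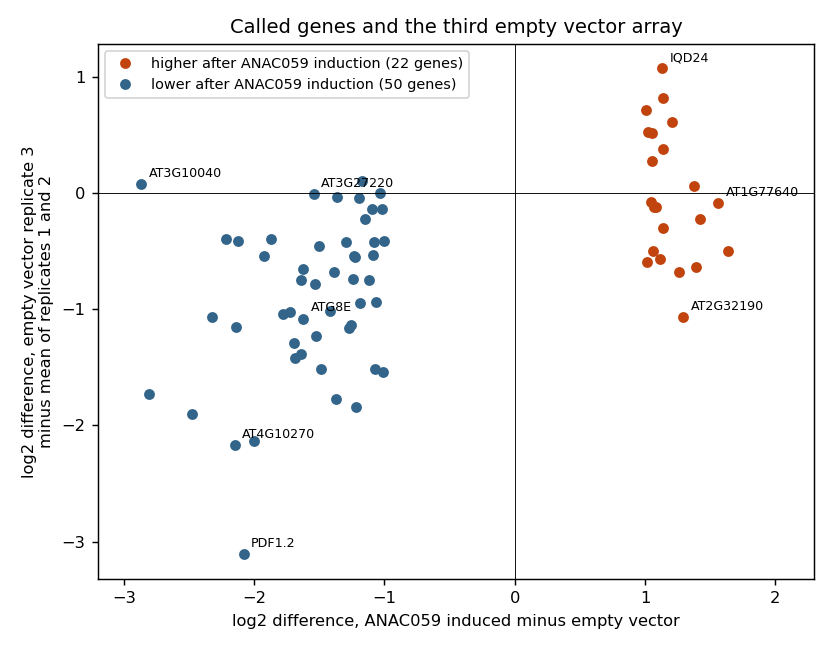
Log2 difference between empty vector replicate 3 and the mean of replicates 1 and 2 in the ANAC092 set (vertical) against the log2 difference between ANAC059 induced and empty vector arrays (horizontal), for the 72 named genes called with at least 1 log2. The 50 falls reach down to -3.11 (PDF1.2) with AT3G10040 and AT3G27220 near 0, while the 22 rises scatter on both sides of 0, from -1.07 (AT2G32190) to 1.08 (IQD24).

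The ANAC092 induced arrays could be set against empty vector replicate 3 alone, which is not among the controls of the ANAC059 comparison. This has 1 control array and gives values without a test. The ANAC092 induced mean was above replicate 3 at 34 of the 42 probe sets that rose after ANAC059 induction, by at least 1 at 15, where 43.1% of all probe sets were above it. AT5G59845, AT4G12580 and scpl48 were 3.06, 3.19 and 3.50 above it, more than their rises of 1.12, 1.06 and 1.05 after ANAC059 induction. AT4G27280 was 1.84 above it and AT1G77640 1.00. AT3G02840 (-0.04), IQD24 (-0.45), TRM28 (-0.43) and AT5G50915 (-0.30) were not above it. Against the mean of all empty vector arrays of that set, the sign changed for IQD24 (0.27), TRM28 (0.12) and AT5G50915 (0.11) and not for AT3G02840 (-0.09). Among the 101 falls the ANAC092 induced mean was below replicate 3 at 76, with a median of -0.43, where 43.1% of all probe sets were above replicate 3. At 16 of the falls it was below by at least 1, and the shares of all probe sets beyond 1 were not counted. AT3G10040 lay 1.71 and AT3G27220 1.27 below replicate 3 on the log2 scale, while AT1G33055 (0.12) and AT4G10270 (1.00) were above it. Against the mean of all empty vector arrays of that set, AT1G33055 was at -1.03 and AT4G10270 at -0.44.

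In leaf 11 of 38-day-old plants, the ANAC059 T-DNA insertion mutant had 1 array and wild type 1, so differences there have no replicate check. At 22.1% of all probe sets the 2 arrays held exactly the same value, which gives no direction, and this was so for 5 of the 42 rises and 14 of the 101 falls. Of the 42 probe sets that rose on induction 9 were at least 1 log2 higher in the insertion line and 0 at least 1 lower, where 4.65% of all probe sets were at least 1 higher. AT3G02840 stood at 8.94 in the insertion line and 5.64 in wild type, CML37 at 7.65 in the insertion line and 6.06 in wild type, and AT3G01830 at 10.54 in the insertion line and 9.06 in wild type. Of the 101 falls 18 were at least 1 higher in the insertion line and 2 at least 1 lower, with CML38 at 8.15 in the insertion line and 5.61 in wild type. The share of all probe sets at least 1 lower was not counted. Rises and falls lay the same way in this leaf difference. It was above 0 at 27 of the 42 rises and 65 of the 101 falls, against 30.7% of all probe sets. The low-oxygen genes AT3G10040 (3.88) and AT5G66985 (3.51) held exactly the same value on both arrays.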

How the data were processed

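Labelled RNA was hybridised to Affymetrix ATH1 arrays. The deposited log2 signals were made by the authors with RMA, per the submitters' processing notes, which give no version, separately for each of 3 array sets. Values were compared only within a set. RMA's quantile step hides a change shared by most transcripts, and array number limits the precision.

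Control probe sets (64) were dropped, and 22746 others were tested with limma 3.58.1 in R 4.3.3 (lmFit, eBayes, two-sided, group as the only term) and Benjamini-Hochberg adjustment over all of them at 0.05. Alternatives were quantile normalization, a filter on dim probe sets, an intensity trend, median centring, a replicate block and leaving out each array. The fit recovered known changes added to simulated arrays with independent noise. Those arrays held no array-wide effects, so this checks the code and not the calls here. Names came from the platform annotation, matched by gene ID to the TAIR10.1 gene table: 13513 probe sets had 1 gene, 503 several and 8730 none, and 13436 matched a locus. List members were taken by locus or symbol, with the brightest probe set of each gene, and counted without a set test. A gene called not measured may have an unnamed probe set.

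The named genes are the 25 highest and 25 lowest single-gene calls of at least 1 log2 without overlap, up to 6 called members of each list, members given as not passing, and the 2 highest and 2 lowest unnamed probe sets; other genes were chosen after their values were seen. The comparison, lists and rules were chosen with earlier results of these data known. No sequence was used, and no coordinates are given.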

Additional observations from a re-analysis of the deposited data

Results flagged for a closer look

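Among the called genes and probe sets named in the text, there were 2 at which every array of the ANAC059 induction lay on one side of its empty vector arrays and every array of the ANAC092 induction on the other side of its own. The difference between the inductions was not tested, and both use empty vector replicates 1 and 2. Probe set 258059_at, without a gene name, rose by 3.81 after ANAC059 induction and differed by -0.45 after ANAC092 induction. In the ANAC092 set its induced arrays stood at 7.86, 7.37 and 7.69 and the empty vector arrays at 8.30, 7.94 and 8.02. Whether this probe set measures the induced ANAC059 gene itself was not tested. UGT84A3, a UDP-glycosyltransferase gene, stood at 10.31 and 10.47 in ANAC059 induced shoots, against 9.81 and 9.73 in their controls (0.62), and at 9.28, 9.55 and 9.12 in ANAC092 induced shoots, against 9.91, 9.74 and 10.27 in theirs (-0.66). Its call after ANAC059 induction did not hold in every fit without 1 array. For this gene empty vector replicate 3 lay 0.44 above the mean of replicates 1 and 2.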

How the results depend on the processing

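The counts of 679 calls, 42 large rises and 101 large falls stayed within 1.5 times with quantile normalization (697, 35 and 112), without dim probe sets (930, 39 and 97), with an intensity trend (803, 43 and 101) and with median centring (740, 42 and 106). With the replicate number as a block limma called 0 probe sets, 0 large rises and 0 large falls (4131 had an unadjusted p under 0.05), in a fit with 1 residual degree of freedom. The titles give only the replicate number, not whether equal numbers were handled together. The replicate 1 minus replicate 2 differences of the groups had a correlation of 0.03 over the probe sets. With 1 such difference per group, this cannot decide whether the samples were paired. Leaving out 1 array gave 161 to 444 calls, 36 to 51 large rises and 82 to 135 large falls. Higher calls outnumbered lower ones in the full fit (375 and 304) and without dim probe sets (570 and 360). The same held with an intensity trend (458 and 345) and with median centring (387 and 353). It did not hold with quantile normalization (335 and 362) or in the 4 fits without 1 array. The cause was not tested. No called gene or probe set named by the rule changed direction under these alternatives; genes given as not passing were not followed through them. With 2 arrays a side and no detection calls, small differences of dim genes were not resolved.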
